A study of Homo sapiens with 4 samples.

Results

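The genes described here are 9 cell adhesion molecules built from immunoglobulin domains, 3 of which also carry leucine-rich repeats: AMIGO1, AMIGO2, AMIGO3, L1CAM, NCAM1, ALCAM, MCAM, ICAM1 and VCAM1. They were taken by gene symbol from the platform annotation, which names 19090 genes, and they hold 17 of the 28264 probes of the array. The family was chosen by the HD minus ND difference of AMIGO2, among the strongest rises already known from these arrays, and the other 8 genes were added as its relatives in structure or function with that comparison in view. Their differences between HD and ND are therefore given as a description, without a test. The cells were TOV112D, an established human epithelial ovarian cancer cell line, and their total RNA was labelled with Cy5 and measured on single-colour oligonucleotide arrays of the whole genome. The HD group was TOV112D transfected with a HOXD10 plasmid (HOXD10-pCDNA), and the ND group was TOV112D given as control, for which the figure legends name the control plasmid and the array methods name mock transfection, with 2 arrays in each group. According to the methods, the medium was changed a day after transfection and the cells were used a day after that. HD is thus 1 cell line after transient transfection, in which cells with and without the plasmid were measured together, so more cells with a transcript and more transcript per cell cannot be told apart. No source says whether the arrays of a group came from separate transfections, so all errors given here, and the p-values of related genes, cover only differences among these 4 arrays, possibly technical ones.

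Immunoglobulin and leucine-rich adhesion molecules are membrane proteins that hold cells to one another or to leukocytes, by binding their own kind or a partner on the facing cell. AMIGO proteins bind one another on neurons and other cells. L1CAM and NCAM1 were described on neurons and are also found on tumours. ALCAM and MCAM, also called CD166 and CD146, occur on epithelial, endothelial and melanoma cells. ICAM1 and VCAM1 are induced on endothelium by inflammatory cytokines, and leukocyte integrins bind them. L1CAM is a known marker of aggressive endometrial and ovarian carcinoma.

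The deposited intensities were normalized by the authors and no value lies below 50, so a probe at 50 has only an upper limit there. The share of all probes at this lowest value was 19.7% and 15.6% on the HD arrays and 16.8% and 16.4% on the ND arrays. The probe for HOXD10 itself was at 50 on all 4 arrays, and it cannot check the transfection, since no source used here says whether it matches the plasmid insert. The paper reports higher HOXD10 mRNA by qPCR and higher protein by western blot in TOV112D cells given the plasmid. The arrays of a group differed at least 2-fold for 1.64% of all probes in HD and for 3.72% in ND, and in ND the replicate 1 array was the higher one for 1009 of these 1051 probes. Of 9 epithelial markers 2 rose, 1 fell and 6 did not pass by limma after adjustment. EPCAM rose by 2.13 on the log2 scale and KRT8 was at least 2.03-fold higher in HD cells (adjusted p = 0.0343 and 0.0250 from limma). KRT19 had a log2 difference of -1.13 (adjusted p = 0.0443 from limma). KRT18, PAX8 and ESR1 had 0.54, -0.77 and -0.02, which did not pass, with PAX8 and ESR1 at 50 on some arrays. The sums of the epithelial markers were 2909 and 2467 in HD and 1675 and 1698 in ND. CDH1, KRT7 and MUC16 were at 50 on every array, so these defining epithelial markers were not above the lowest value in either group. Of 7 endothelial markers 0 rose and 0 fell by limma after adjustment (0 higher and 1 lower at an unadjusted p under 0.05), their summed intensity was 1179 and 1168 on the HD arrays and 1600 and 1460 on the ND arrays, and TIE1 was at 50 throughout. Of 6 measured leukocyte markers PTPRC rose by 1.55 on its brighter probe, while its other probe and LYZ were at 50 throughout. CD68, CD14, CD3E and ITGB2 had log2 differences of -0.63, -0.39, -0.05 and 0.33 that did not pass, and the sums of the leukocyte markers were 2225 and 2422 in HD and 2671 and 3396 in ND. Of 7 neural markers MAP2 and SNAP25 rose, by 2.30 and 1.20 on the log2 scale (adjusted p = 0.0352 and 0.0483 from limma). The dimmer probe of MAP2 had a log2 difference of -0.29, and TUBB3, RBFOX3, ENO2 and SYP had -0.47, -0.61, -0.13 and 0.44, none of which passed. GFAP was at 50 throughout, and the sums of the neural markers were 24999 and 24788 in HD and 26227 and 31213 in ND. The part of these markers in the results below was not tested.

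Of the 17 probes, 12 were above 50 on all arrays, 4 were at 50 on some arrays and 1 was at 50 on every array. The direction was not shared by the family. AMIGO2, ALCAM, MCAM and L1CAM were higher in HD cells, AMIGO3 and 1 probe of NCAM1 were lower, and ICAM1, VCAM1 and AMIGO1 lay close together in both groups. In all, 4 probes, of AMIGO2 and ALCAM, had an HD level of 2-fold or more over ND, against 6.31% of all 28264 probes, and 2 probes, of NCAM1 and AMIGO3, were lower by 2-fold or more, against 8.02% of all probes. The HD arrays both lay above the ND arrays for 9 of the 17 probes and both below for 3, beside 24.9% and 34.8% of all probes. The median log2 difference, HD minus ND, was 0.16 over the 17 probes and -0.02 over all probes. Since the comparison was known when the genes were chosen, nothing is read from these shares.

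**Figure D1:**
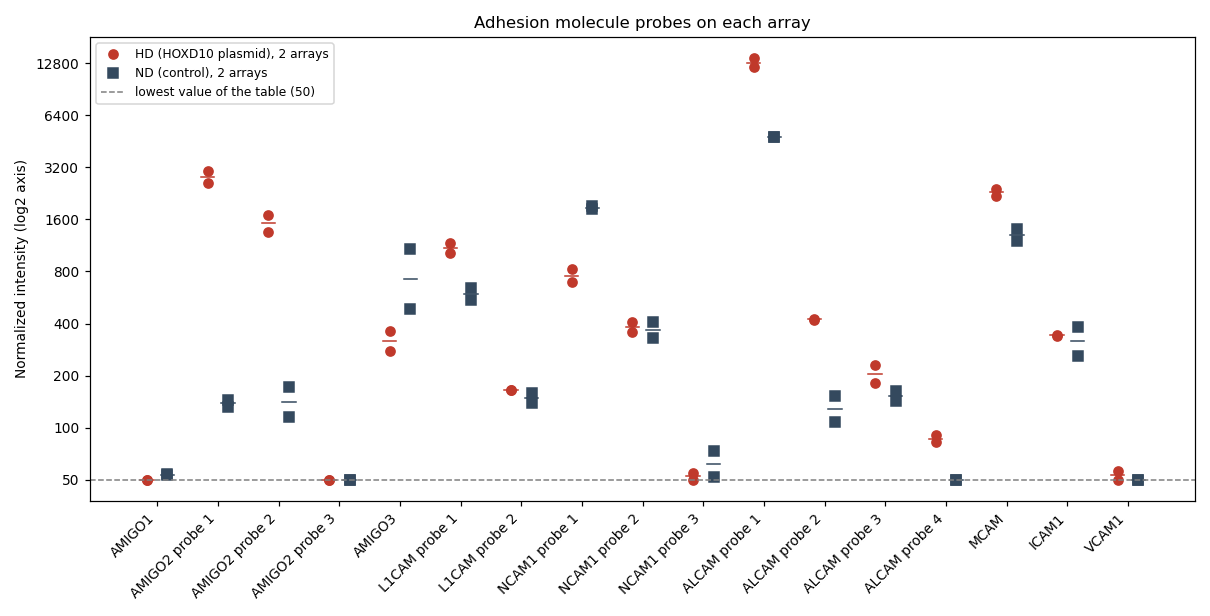
Normalized intensity (log2 axis) of the 17 adhesion molecule probes on each of the 4 arrays, with HD arrays as circles left of ND arrays as squares, a short line at the mean of the log2 values of each group, and a dashed line at the lowest value of the table, 50. Probes 1 and 2 of AMIGO2 lie between 1359 and 3072 on the HD arrays and between 115 and 173 on the ND arrays, whereas probe 3 of AMIGO2 is at 50 on all of them.

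The promoters of AMIGO2, ALCAM and MCAM are shown because these are among the genes whose brightest probe was higher in HD cells. That of VCAM1, which like ICAM1 is a cytokine-induced member, is shown because VCAM1 stayed at the lowest value on 3 of the 4 arrays. Each is the stretch of 250 bases before the RefSeq gene start in GRCh38.p14, read 5′ to 3′ on the gene's strand, and for AMIGO2 and L1CAM, which have 2 entries, the first was used. Capitals mark matches, on either strand, to the HOX and PBX motif TGATTNAT, the AP-1 motif TGANTCA, the cyclic AMP response element TGACGTCA, the TATA motif TATAAA, the GC box GGGCGG or the NF-κB consensus GGGRNWYYCC. In these, N is any base, R is A or G, W is A or T and Y is C or T. An NF-κB site of another form would not be found. Matches may overlap.
AMIGO2, chr12:47079952-47080201, minus strand: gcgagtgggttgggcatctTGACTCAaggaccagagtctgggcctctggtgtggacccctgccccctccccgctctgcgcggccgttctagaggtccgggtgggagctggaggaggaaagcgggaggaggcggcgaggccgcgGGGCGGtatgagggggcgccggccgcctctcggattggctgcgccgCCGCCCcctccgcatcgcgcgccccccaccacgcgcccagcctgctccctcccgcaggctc
ALCAM, chr3:105366659-105366908, plus strand: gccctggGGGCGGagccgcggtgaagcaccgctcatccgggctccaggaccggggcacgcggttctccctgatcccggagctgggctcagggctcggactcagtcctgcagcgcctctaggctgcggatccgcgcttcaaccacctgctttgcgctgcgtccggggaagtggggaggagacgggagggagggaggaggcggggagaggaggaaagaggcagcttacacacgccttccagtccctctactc
MCAM, chr11:119317131-119317380, minus strand: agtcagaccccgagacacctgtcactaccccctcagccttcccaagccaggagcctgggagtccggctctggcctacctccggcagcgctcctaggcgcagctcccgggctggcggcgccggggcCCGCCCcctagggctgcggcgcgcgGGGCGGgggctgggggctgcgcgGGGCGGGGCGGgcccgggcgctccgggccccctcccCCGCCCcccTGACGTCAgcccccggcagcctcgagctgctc
VCAM1, chr1:100719492-100719741, plus strand: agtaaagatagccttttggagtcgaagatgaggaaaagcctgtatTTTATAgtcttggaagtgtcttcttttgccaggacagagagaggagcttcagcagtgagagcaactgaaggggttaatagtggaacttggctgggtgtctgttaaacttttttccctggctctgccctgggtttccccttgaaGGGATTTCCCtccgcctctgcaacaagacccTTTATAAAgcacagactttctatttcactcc
A promoter entry matched 8 of the 9 genes, and NCAM1 was not among them. The HOX and PBX motif was in 0 of these 8 promoters and in 2.48% of all 35116 promoters searched over the same length. The GC box was in 7 of the 8, all but VCAM1, and in 42.6% of all promoters. The TATA motif was in 2, ICAM1 and VCAM1, and in 10.7% of all promoters. The AP-1 motif was in AMIGO2 alone among the 8 (6.57% of all promoters), the cyclic AMP response element in MCAM alone (1.65%) and the NF-κB consensus in VCAM1 alone (5.21%). The promoters of genes that were higher in HD cells thus shared only the GC box among the motifs searched. Those of AMIGO1, AMIGO3 and ICAM1, which were not higher, held it too. A match is a description of the letters and not a binding site.

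AMIGO2, which promotes cell survival and adhesion and is expressed in several tumours, had the largest difference of the family. Its brightest probe, PH_hs_0006765, gave 3072 and 2617 on the HD arrays and 145 and 132 on the ND arrays (normalized intensity). The groups were far apart, and the log2 difference was 4.36 with a standard error of 0.12 from the limma fit across all probes, a 20.5-fold higher level. Of all 28264 probes, its difference ranked 4 from the highest. Probe 2, PH_hs_0060654, gave 1700 and 1359 in HD and 173 and 115 in ND, a log2 difference of 3.43 (standard error 0.30) that ranked 11. Both probes moved the same way, and the gap between arrays of 1 group was at most 0.58 on the log2 scale. Probe 3, PH_hs_0045088, was at 50 on all 4 arrays and so carries no information on the change. With 50 added to each value before the log2, the differences of probes 1 and 2 were 3.94 and 3.03. In the RefSeq annotation AMIGO2 overlaps PCED1B, whose probe gave 806 and 920 in HD and 720 and 1047 in ND, with groups that overlap.

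The other AMIGO genes did not share this rise. AMIGO3 gave 363 and 277 on the HD arrays and 1082 and 487 on the ND arrays, on its single probe PH_hs_0034955. Both HD arrays lay below both ND arrays, by -1.19 on the log2 scale (standard error 0.54), but the ND arrays were 2.22-fold apart. AMIGO3 was the only probe of the family whose arrays within a group differed at least 2-fold, and its higher ND array was replicate 1, as for most probes with such a gap. Without that array the log2 difference of AMIGO3 was -0.62, and over all arrays left out in turn it ran from -1.77 to -0.62. RNF123, which overlaps AMIGO3 in the annotation, gave 150 and 135 in HD and 145 and 130 in ND. AMIGO1, an auxiliary subunit of the Kv2.1 potassium channel in neurons, was at 50 on both HD arrays and gave 52.8 and 53.9 on the ND arrays. It was therefore at or next to the lowest value in both groups, like VCAM1, and no difference was measurable.

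ALCAM, a homophilic adhesion molecule and the ligand of CD6 on T cells, was higher in HD cells on each of its 4 probes. Probe 1, PH_hs_0048683, the brightest probe of ALCAM, gave 13706 and 12240 on the HD arrays and 4806 and 4830 on the ND arrays. The ND arrays were almost equal, and the log2 difference was 1.43 with a standard error of 0.074, a 2.69-fold higher level. Probe 2, PH_hs_0001048, gave 428 and 416 in HD and 108 and 153 in ND, a log2 difference of 1.72 (standard error 0.23). Probe 3, PH_hs_0060435, gave 230 and 181 in HD and 143 and 163 in ND, a smaller log2 difference of 0.42 (standard error 0.18) that exceeded the larger gap between arrays of a group by only 1.19 times. Probe 4, PH_hs_0060434, was at 50 on both ND arrays and gave 90.1 and 82.6 on the HD arrays, at least 1.72-fold higher. The direction was thus the same on all 4 probes. The size ran from 0.42 to 1.72 on the log2 scale over probes 1 to 3 and has only a lower limit on probe 4. After quantile normalization the log2 difference of probe 1 was 1.66.

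MCAM, an endothelial and melanoma adhesion molecule that binds laminins containing the α4 chain, gave 2395 and 2195 on the HD arrays and 1207 and 1401 on the ND arrays on its single probe PH_hs_0026600. The groups did not overlap, the log2 difference was 0.82 (standard error 0.11), and with any array left out it stayed between 0.71 and 0.93. L1CAM, a neural adhesion molecule that signals through integrins and growth factor receptors, gave 1166 and 1024 in HD and 550 and 641 in ND on probe 1, PH_hs_0049269. This was a log2 difference of 0.88 (standard error 0.13). Probe 2 of L1CAM, PH_hs_0026029, gave 165 and 166 in HD and 159 and 138 in ND. Its groups did not overlap either, but the log2 difference of 0.16 (standard error 0.093) was smaller than the gap of 0.21 between the ND arrays. The antisense RNA L1CAM-AS1 overlaps L1CAM in the annotation and gave 732 and 713 in HD and 512 and 630 in ND, a log2 difference of 0.35 with adjusted p = 0.218 from limma.

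NCAM1, the neural cell adhesion molecule that can carry polysialic acid, had probes that did not move together. Probe 1, PH_hs_0047381, gave 822 and 691 on the HD arrays and 1838 and 1915 on the ND arrays. The groups were well apart on this probe, with a log2 difference of -1.32 (standard error 0.11), the most negative of the family. Probe 2, PH_hs_0022189, gave 410 and 357 in HD and 331 and 408 in ND, with overlapping groups and a log2 difference of 0.06 (standard error 0.16). Probe 3, PH_hs_0045102, lay near the lowest value, at 50 and 54.6 in HD and 51.9 and 72.7 in ND. Only the brightest of the 3 probes was therefore lower in HD cells by more than the spread between arrays. No source used here says which NCAM1 transcripts each probe can detect.

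The cytokine-induced members differed little. ICAM1, the ligand of the leukocyte integrins αLβ2 and αMβ2, gave 337 and 345 on the HD arrays and 260 and 383 on the ND arrays on its probe PH_hs_0024395. The HD values lay between the ND values, and the log2 difference of 0.11 (standard error 0.25) changed sign, to -0.17, without the replicate 1 array of ND. VCAM1, the ligand of integrin α4β1, was at 50 on 1 HD array and on both ND arrays and gave 56.0 on the other HD array, on its probe PH_hs_0006036. It was thus not measurably above the lowest value in either group, and a difference at lower levels was not detectable.

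**Figure D2:**
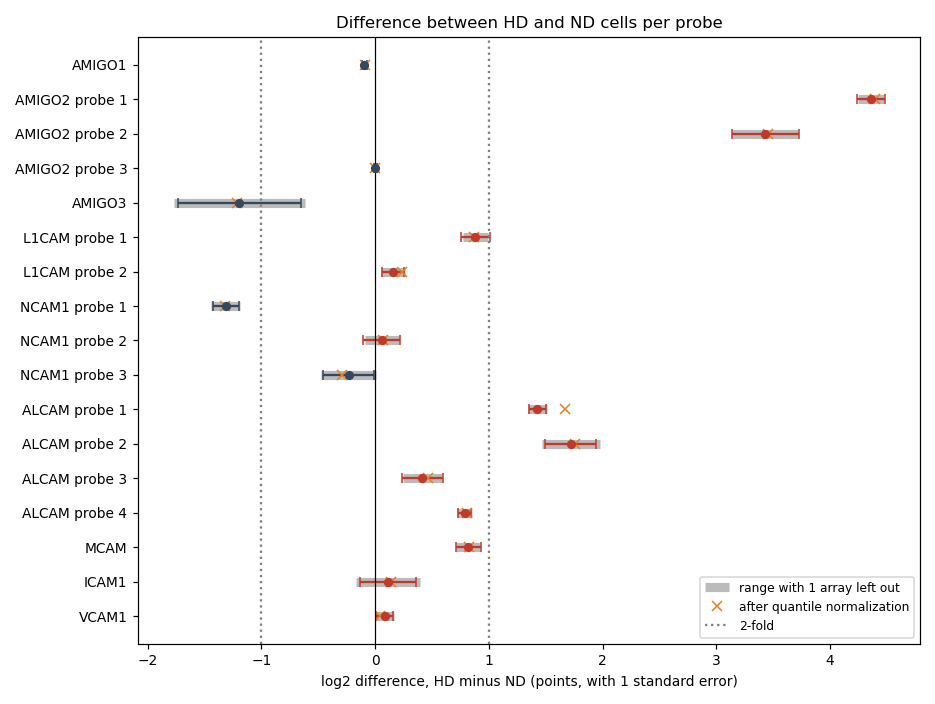
Difference between HD and ND cells on the log2 scale for each of the 17 probes, HD minus ND, as points with 1 standard error from the limma fit, with the range obtained when 1 array is left out in grey, the value after quantile normalization as a cross, and dotted lines at 2-fold. AMIGO2 probes 1 and 2 lie at 4.36 and 3.43 and ALCAM probes 1 and 2 at 1.43 and 1.72, while the range of AMIGO3 reaches from -1.77 to -0.62.

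The differences were also set against the gaps between arrays of a group. For 11 of the 17 probes the difference between HD and ND was larger than both within-group gaps, beside 50.4% of all probes, and among the 11 AMIGO1 and ALCAM probe 4 were at 50 in 1 of the groups. It was 18.9 times the larger gap for AMIGO2 probe 1, 8.74 times for ALCAM probe 1, 5.28 times for NCAM1 probe 1, 3.98 times for L1CAM probe 1 and 3.81 times for MCAM. For AMIGO3 the difference was 1.04 times the gap between the ND arrays, so it barely exceeded it. The probes whose difference did not exceed the gap were those of ICAM1 and VCAM1, probes 2 and 3 of NCAM1, probe 2 of L1CAM and probe 3 of AMIGO2. The gap was wider in ND than in HD for 10 of the 17 probes.

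**Figure D3:**
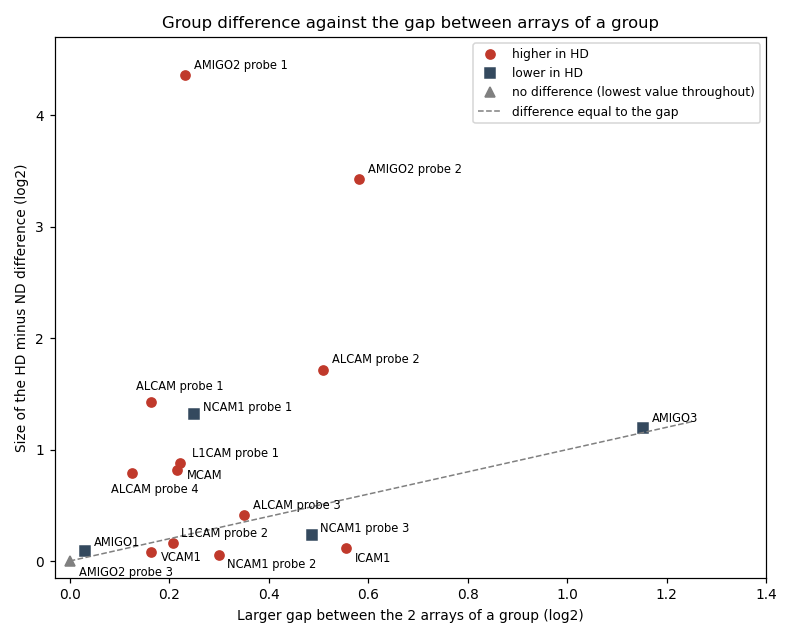
Size of the HD minus ND difference (log2, vertical axis) against the larger gap between the 2 arrays of a group (log2, horizontal axis) for the 17 probes, with a dashed line where they are equal. AMIGO2 and ALCAM probes 1 and 2 lie far above the line, AMIGO3 lies next to it at a gap of 1.15, and ICAM1 lies below it.

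The genes whose values over the 4 arrays were most like AMIGO2 probe 1 were found by the root mean square difference of log2 values, each centred on its own mean, among 20181 probes of other genes with a single symbol and no value at 50. They were GPNMB, a membrane glycoprotein, JAG1, a Notch ligand, GREM1, an antagonist of bone morphogenetic proteins, ADGB and TMEM100, at distances from 0.27 to 0.51 on the log2 scale. GPNMB, the nearest, gave 6992 and 6546 in HD and 224 and 250 in ND. NCAM1 probe 1 had closer neighbours, at 0.011 to 0.013, namely PLAC8, the proteasome subunit gene PSMB3, CHGA, which encodes the neuroendocrine protein chromogranin A, the mitochondrial sirtuin gene SIRT4, and LDOC1. PLAC8, the nearest, gave 4416 and 3664 in HD and 9773 and 10074 in ND. With 4 arrays in 2 groups, this likeness is mostly that of the size of the group difference.

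Genes of the same families and of the members' partners were compared between HD and ND with limma, with Benjamini-Hochberg adjustment across the 28264 probes. The brightest probe of a gene, by mean log2 intensity, stood for it. At an adjusted p under 0.05, 6.67% of all 19090 genes rose and 7.97% fell, and the median log2 difference was -0.13 over the 17228 genes above 50 on at least 1 array. The other 1862 genes were at 50 on every array, so they could not pass and have no measured level. Leaving out any array, or taking the replicate number as a block, ended every such call on these arrays, and those fits have fewer residual degrees of freedom.

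Among 26 genes with a probe for other proteins with leucine-rich repeats and immunoglobulin domains, 1 rose, 1 fell and 24 did not pass, of which 4 were at 50 on every array, and the median log2 difference of the other 22 was -0.01. LINGO2, a neuronal relative of the Nogo receptor partner LINGO1, gave 198 and 215 on the HD arrays and 1081 and 1269 on the ND arrays, a log2 difference of -2.51 (standard error 0.12, adjusted p = 0.0309 from limma). LRRN3, a neuronal leucine-rich repeat protein, gave 824 and 736 in HD and 478 and 487 in ND, and rose by 0.69 (adjusted p = 0.0451 from limma). Its dimmer probe had a log2 difference of 0.23 that did not pass.

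Among 48 genes with a probe for other immunoglobulin adhesion molecules, 3 rose, 2 fell and 43 did not pass, of which 7 were at 50 on every array, and the median of the other 41 was -0.10. CXADR, the coxsackievirus and adenovirus receptor of epithelial junctions, gave 7985 and 6309 in HD and 1668 and 1819 in ND, a rise of 2.03 (adjusted p = 0.0391 from limma), and rose by 2.53 on its other probe. NECTIN3, a junction protein that pairs with other nectins, gave 320 and 272 in HD and 89.6 and 76.5 in ND, a rise of 1.83 (adjusted p = 0.0390 from limma), while its other probe was at 50 throughout. NECTIN2 moved the other way, with 3612 and 2980 in HD and 6877 and 6863 in ND, a log2 difference of -1.07 (adjusted p = 0.0478 from limma), and -0.59 on its other probe, which did not pass. EMB, which encodes embigin, a partner of monocarboxylate transporters, rose by 0.59 on its brighter probe (adjusted p = 0.0363 from limma) and had a log2 difference of -0.17 on the other. NCAM2, the paralogue of NCAM1, gave 50 and 50.1 in HD and 141 and 153 in ND, a log2 difference of -1.56 (adjusted p = 0.0260 from limma). Its HD values were at or next to the lowest value, so the size of this difference is only a lower limit. Values so near 50 also cannot show the spread between the HD arrays. After scaling to the 75th percentile 5 genes of this list rose and 7 fell.

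Among 25 receptors and ligands of the members with a probe, 1 rose, 2 fell and 22 did not pass, of which 3 were at 50 on every array, and the median of the other 22 was -0.09. ITGB1, the β1 integrin chain that pairs with α4 to bind VCAM1, gave 116724 and 100237 in HD and 49498 and 54772 in ND, a rise of 1.05 (standard error 0.12, adjusted p = 0.0463 from limma), and rose by 1.15 on its other probe. LAMA4, the laminin α4 chain bound by MCAM, gave 388 and 373 in HD and 1845 and 1929 in ND, a log2 difference of -2.31 (standard error 0.041, adjusted p = 0.0229 from limma). Its other probes had log2 differences of -1.63, which passed, and -0.35, which did not. LGALS3, a galectin known to bind MCAM, gave 2969 and 2644 in HD and 6405 and 6908 in ND, a log2 difference of -1.25 (adjusted p = 0.0370 from limma). MCAM and the laminin chain it binds thus had differences of opposite sign. After quantile normalization 4 genes of this list rose and 2 fell.

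Among 20 sheddases, membrane linkers and polysialyltransferases, 3 rose, 1 fell and 16 did not pass, and the median was 0.37 over the 19 above 50 on some array. ADAM10, a protease that sheds L1CAM from the cell surface, gave 2168 and 2057 in HD and 1036 and 1072 in ND, a rise of 1.002 (standard error 0.042, adjusted p = 0.0302 from limma). ANK2, a member of the ankyrin family that links L1 proteins to spectrin, gave 305 and 346 in HD and 109 and 117 in ND, a rise of 1.53 (adjusted p = 0.0349 from limma), but -0.20 on its dimmer probe, which did not pass. SPTBN1, a β-spectrin, gave 5778 and 5209 in HD and 2404 and 2676 in ND, a rise of 1.11 (adjusted p = 0.0405 from limma), with -0.03 and -0.23 on its dimmer probes. ACTN4, an α-actinin, gave 13150 and 12495 in HD and 20411 and 22085 in ND, a log2 difference of -0.73 (adjusted p = 0.0400 from limma). The probes of ANK2 and SPTBN1 therefore disagreed, as those of NCAM1 did. After quantile normalization 7 genes of this list rose and 1 fell.

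ICAM1 and VCAM1 respond to NF-κB and interferon signalling. Among 28 genes of these pathways with a probe, a list that holds activators, inhibitors and targets, 3 rose, 1 fell and 24 did not pass, and the median was -0.21 over the 26 above 50 on some array. CHUK, the IKKα kinase, gave 3505 and 3084 in HD and 838 and 1120 in ND, a rise of 1.76 (standard error 0.20, adjusted p = 0.0474 from limma). IFNGR1, a chain of the interferon-γ receptor, gave 5096 and 4556 in HD and 2109 and 2196 in ND, a rise of 1.16 (adjusted p = 0.0360 from limma). REL, an NF-κB subunit, gave 252 and 224 in HD and 103 and 115 in ND, a rise of 1.12 (adjusted p = 0.0421 from limma). NFKBIB, an inhibitor of NF-κB, gave 5927 and 5257 in HD and 10456 and 10958 in ND, a log2 difference of -0.94 (adjusted p = 0.0412 from limma), but 0.09 on its dimmer probe, which did not pass. At an unadjusted p under 0.05 from limma, 6 genes of this list were higher and 7 lower, beside 3132 and 4107 of all 19090 genes. Both directions occurred in the list, and nothing further is read from these counts. ICAM1 gave overlapping values in the groups and VCAM1 stayed at or next to 50. A link between the pathway genes and these 2 members was not tested. After quantile normalization 4 genes of this list rose and 4 fell, and after scaling to the 75th percentile 5 rose and 6 fell.

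**Figure D4:**
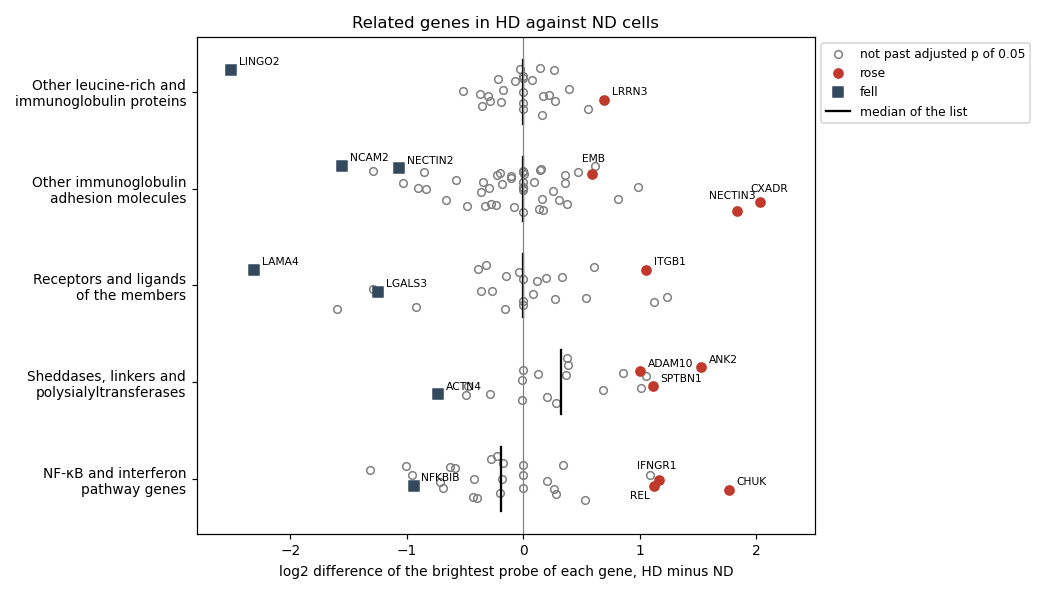
Log2 difference, HD minus ND, of the brightest probe of each gene with a probe in 5 lists of related genes, with genes that rose as filled circles, genes that fell as squares, both at an adjusted p under 0.05 from limma, others as open circles, and the median of each list, with genes at 50 on every array counted as 0, as a vertical line. CXADR and NECTIN3 lie at 2.03 and 1.83, LINGO2 and LAMA4 at -2.51 and -2.31, and the list medians lie between -0.19 and 0.32.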

How the data were processed

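Total RNA of TOV112D cells (2 HD and 2 ND arrays) was hybridised by the authors to the Human Whole Genome OneArray, scanned, read with GenePix and normalized in Rosetta Resolver with centring at the 75th percentile. The deposited values are normalized intensities on a linear scale with a floor of 50, and here all arrays have the same median while their 75th percentiles run from 1783 to 1931, so the values are not centred at the 75th percentile. No source used here describes a background correction. The number of arrays limits the precision. The log2 of the deposited intensities was compared, HD minus ND, with limma 3.58.1 (lmFit, eBayes; R version 4.3.3) on the full set of 28264 probes, without filter or block, with Benjamini-Hochberg adjustment, and the fit was tested on simulated data. In that fit, information shared across probes counted as 0.54 degrees of freedom, against 2 from the probe's own arrays. The standard errors therefore rest mostly on the gaps between the arrays of each group for that probe. A single symbol was given for 25893 probes and none for 2371. The 9 members and all lists were chosen with earlier results of these data known. All probes of the members, up to 3 genes with the smallest adjusted p in each direction of a list, the markers and the 5 genes nearest to AMIGO2 and to the lowest member probe were named. Overlapping genes and promoters were taken from RefSeq (GRCh38.p14), and the overlapping genes and promoter motifs were chosen after values were seen. Alternatives covered normalization, a pseudocount of 50, a filter on probes at 50 on 3 or more arrays, the variance model, the probes of a gene, the threshold, the replicate block and leaving out each array.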

Additional observations from a re-analysis of the deposited data

How the results depend on the processing

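A replicate block, or the filter for a probe that it keeps, cannot change the HD minus ND difference in this balanced design. Leaving out an array shifts the difference by no more than the gap within that group, so it can only change the sign. Only quantile normalization, percentile scaling and the pseudocount could move a value beyond the spread between arrays. That spread is here the standard error from the probe's own 4 arrays, which can be smaller than a gap within a group. With the pseudocount, the shifts of AMIGO2 probe 2 and ALCAM probe 2 exceeded that standard error but not the gap between their ND arrays. Of 168 values of member probes under other settings, 157 stayed within that spread, a count largely fixed in advance. Another 7 moved beyond it, all under those normalizations or the pseudocount, and 4 changed sign. The 4 are leave-one-out values of dim or overlapping probes, whose ranges were -0.092 to 0.21 for NCAM1 probe 2 (-0.042 and -0.092 without HD replicate 1 and ND replicate 1), -0.48 to 0.0098 for NCAM1 probe 3 and -0.17 to 0.39 for ICAM1. The count of 4 member probes at least 2-fold higher held under all settings, and the 2 at least 2-fold lower were 1 to 2 with an array left out, since AMIGO3 fell under 2-fold without HD replicate 2 or ND replicate 1.

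For related genes, 11 calls that rose and 7 that fell over the 5 lists became 18 and 10 with quantile normalization, 21 and 19 with scaling to the 75th percentile, 21 and 23 without probes at 50 on 3 or more arrays, and 1 and 2 with robust eBayes. Calls over all probes moved too, being 1879 higher and 2033 lower with the deposited values and, in the same order of settings, 3300 and 2751, 4256 and 5216, 4042 and 5477, and 271 and 293. With the replicate block, and with crossed numbers (chosen after seeing the data, as within-group differences of same-numbered arrays correlated at -0.32), 0 rose and 0 fell in each list, and no probe of the array passed, although 1563 and 1670 were at least 2-fold higher at an unadjusted p under 0.05 from limma. Leaving out any array gave 0 to 0 in each list. With an array left out, the lone array of a group is assumed to vary like the other group.

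By list, after quantile normalization 4 receptors and ligands and 7 sheddases or linkers rose and 4 NF-κB or interferon pathway genes fell. After scaling to the 75th percentile, 5 immunoglobulin molecules rose and 7 fell, 4 receptors rose, 6 linkers rose and 3 fell, and 5 of these pathway genes rose and 6 fell. With the filter, 5 immunoglobulin molecules rose and 9 fell, 4 receptors rose and 5 fell, 7 linkers rose and 7 pathway genes fell. With the pseudocount, 2 pathway genes fell. With the mean over probes, 0 leucine-rich genes rose, 4 immunoglobulin molecules fell, 2 receptors rose and 2 linkers fell. At 2-fold and an unadjusted p under 0.05 from limma, 0 leucine-rich genes and 3 receptors rose, and 0 linkers and 0 pathway genes fell. With robust eBayes, 1 immunoglobulin molecule and 1 receptor fell, 1 linker rose, and all other counts were 0. The cause of these shifts was not tested. Probes at 50 have no measured level, which limits AMIGO1, VCAM1, AMIGO2 probe 3, NCAM1 probe 3 and ALCAM probe 4. Among the related genes that passed, it limits NCAM2.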
